A study of Danio rerio with 12 samples.

Results

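The zebrafish cathepsin L gene ctslb and 4 genes that lie beyond it on the same chromosome are described here across both embryo regions of the study. The 5 genes are ctslb, si:dkey-26g8.5, zgc:174153, wu:fa26c03 and stambpl1. They were taken as the probe sets whose only gene symbol in the platform annotation is the name of that gene, which gave 1 probe set for each of the 5 genes, out of 20635 genes that could be named on the array. ctslb, si:dkey-26g8.5, zgc:174153 and wu:fa26c03 were selected on their measured signal, which in transgenic embryos was higher than in control embryos in Region 1 and lower in Region 2, and stambpl1 was added as a neighbour. The regional differences of the 5 genes are therefore given as a description, with no test.

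RNA was measured on Affymetrix Zebrafish Gene 1.1 ST arrays in pieces of embryos between the 3 and 4 somite stage. Transgenic embryos carried Tg(hsp70:HA-dmrt2a), in which the hsp70 heat-shock promoter drives an HA-tagged form of the transcription factor Dmrt2a, and control embryos were wildtype. All embryos, controls included, received a heat-shock of 30 min at 39 °C at bud-stage, were kept at 28 °C and were dissected from 2 h to 2 h 30 min later. Region 1 ran from the first to the last somite and included the tissues lateral and ventral to them, and Region 2 held the tailbud, the presomitic mesoderm, Kupffer's vesicle and the tissues around them. Each of the 4 groups had 3 arrays, 12 in all, and each array came from a pool of 100 pieces. The driving promoter responds to heat in most cells and is not restricted to the tissues that express dmrt2a, and the study kept fish with a single copy of the transgene.

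The dmrt2a signal was higher in transgenic than in control pieces by 0.35 on the log2 scale in Region 1 and by 1.40 in Region 2. Somite and tailbud marker lists separated the regions of the control pieces, with a mean log2 signal of 7.41 to 7.45 over 12 somite genes in Region 1 against 6.32 to 6.36 in Region 2, and of 6.40 to 6.42 over 11 tailbud genes in Region 1 against 8.99 to 9.09 in Region 2. The median of all probe sets was 3.47 to 3.49 on the arrays of Region 1 and 3.29 to 3.32 on those of Region 2, and replicate arrays correlated at 0.988 to 0.992.

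Cathepsins are proteases of the lysosome, and cathepsin L is a cysteine protease that some cells also secrete. In zebrafish, ctslb is best known as a gene of the hatching gland, whose cells arise from the anterior prechordal plate (the polster) and release proteases that soften the egg envelope before hatching. The RefSeq gene table lists hgg1 and catL among the older names of ctslb, and gives ctsl, the symbol of cathepsin L, as another name of si:dkey-26g8.5 and zgc:174153. It gives wu:fa26c03 no other name, and whether this gene encodes a cathepsin was not tested. Where wu:fa26c03 is counted as cathepsin-like below, the label rests on its place among these genes. stambpl1 encodes a deubiquitinating enzyme, known mainly from mammals, that is related to the STAM-binding protein and trims ubiquitin chains from cargo on endosomes.

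The annotated genes stood in 1 row in the RefSeq table of the GRCz12tu assembly, which is not the build of the array and was used only for names and gene order. From ctslb to stambpl1 it held 29 annotated genes, 25 of them protein-coding. The first 18 of these, from ctslb to zgc:174153, included 15 protein-coding genes, of which 5 had a probe set of their own. Another 2 probe sets carried several gene symbols of the same row. The larger was assigned to 8 genes, namely ctslb, MGC174155, wu:fa26c03, si:dkey-269i1.4, ctslb.4, si:dkey-26g8.4, si:dkey-239j18.3 and zgc:174154. Of these, ctslb.4 lies before ctslb, outside the stretch from ctslb to stambpl1. The smaller probe set was assigned to 2 genes, zgc:174855 and si:dkey-269i1.4. Both were added to the description after their values were seen. Where a probe set is assigned to several copies, the signal cannot be given to 1 of them, and whether the probes of the single-gene probe sets also match neighbouring copies was not checked, so values of the cathepsin-like genes are uncertain as values of a single gene.

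The only sequences of these genes in the sources used here are the primers with which the study measured ctslb by qPCR, an assay not analysed here. They are shown as the study's designed oligos for ctslb, in lower case, 5′ to 3′, with no base marked in capitals. Their match to the other genes of the row was not checked.
ctslb forward: tggaattacagtcagtaaggtttgc
ctslb reverse: tctcctcccgacctctacg

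The ctslb signal was highest in transgenic pieces of Region 1 and lowest in transgenic pieces of Region 2. In Region 1 its log2 signal was 5.97, 6.03 and 6.05 on the 3 transgenic arrays and 4.72, 4.97 and 5.17 on the 3 control arrays. In Region 2 it was 4.26, 3.54 and 3.57 on the transgenic arrays and 5.26, 5.27 and 5.44 on the control arrays. The 4 groups did not overlap, and the transgenic arrays of Region 2 were the most spread, with replicate 1 above the other two. The group means were 6.02 ± 0.0444 (SD, n = 3) and 4.96 ± 0.227 (SD, n = 3) for transgenic and control pieces of Region 1, and 3.79 ± 0.407 (SD, n = 3) and 5.32 ± 0.105 (SD, n = 3) for those of Region 2. The log2 difference between transgenic and control pieces was 1.06 (SE 0.12), a fold of 2.08, in Region 1, and -1.53 (SE 0.199), a fold of 2.89 downwards, in Region 2. By the paper's account, its qPCR bore out every gene selected from the arrays apart from ctslb in Region 1. The rise of ctslb on the arrays of Region 1 was thus not borne out by that assay, whose values were not analysed here. After knockdown of dmrt2a, the paper kept cyp1a as its only downstream gene of Region 2. ctslb was not among the genes it names as downstream of Dmrt2a. In pieces that hold many cell types, fewer cells of a type and less RNA per cell cannot be told apart.

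The separation of single genes has to be read against the whole array. In Region 1, 9.72% of all probe sets had their 3 transgenic arrays above the 3 controls, and in Region 2, 9.30% had them below. At an adjusted p under 0.05 in limma, which was part of what chose the genes, 0.162% of 75212 probe sets were higher in Region 1 and 0.400% were lower in Region 2.

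The gene si:dkey-26g8.5 showed the widest regional contrast of the 5 genes. Its log2 signal in Region 1 was 6.53, 6.69 and 6.39 on the transgenic arrays and 5.02, 4.81 and 4.71 on the control arrays. In Region 2 it was 3.81, 4.04 and 4.44 on the transgenic arrays and 5.69, 5.79 and 5.83 on the control arrays. The groups did not overlap in either region, and the lowest transgenic array of Region 1 stood far above the highest control array. The log2 difference was 1.69 (SE 0.117), a fold of 3.23, in Region 1 and -1.67 (SE 0.158), a fold of 3.19 downwards, in Region 2. Among all probe sets it ranked 2 by the size of the rise in Region 1 and 19 by the size of the fall in Region 2. These ranks are a description, because the rise and the fall chose the gene.

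zgc:174153 and wu:fa26c03 followed the same order of groups at lower signals. The log2 signal of zgc:174153 was 5.18, 5.49 and 5.19 on the transgenic arrays of Region 1, against 3.76, 4.29 and 4.23 on the control arrays. In Region 2 it was 3.41, 2.98 and 3.56 on the transgenic arrays, against 4.90, 4.76 and 5.05 on the control arrays. The groups of each region were apart, with differences of 1.19 (SE 0.166) in Region 1 and -1.59 (SE 0.163) in Region 2. For wu:fa26c03 the log2 signal was 3.89, 4.15 and 4.07 on the transgenic arrays of Region 1 and 2.84, 3.13 and 2.70 on the control arrays. It was 2.09, 2.41 and 1.89 on the transgenic arrays of Region 2 and 3.73, 3.48 and 3.87 on the control arrays. These groups were also apart, and the differences were 1.15 (SE 0.129) and -1.56 (SE 0.161). This was the dimmest of the 5 probe sets. On the transgenic arrays of Region 2 it stood between the 14.2th and the 29.4th percentile of all probe sets, and its mean over the 12 arrays, 3.19, was below the median of all probe sets.

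Both probe sets shared by several genes of the row moved in the same directions. The probe set of 8 genes read 8.03, 7.97 and 8.0 on the transgenic arrays of Region 1 and 6.58, 6.65 and 6.64 on the control arrays. It read 6.21, 5.93 and 6.16 on the transgenic arrays of Region 2 and 7.69, 7.67 and 7.96 on the control arrays. Its groups were the tightest among the cathepsin-like probe sets of Region 1, and its differences were 1.38 (SE 0.0624) and -1.67 (SE 0.117). The probe set of 2 genes read 4.62, 4.69 and 4.64 against 3.98, 3.98 and 3.88 in Region 1, and 2.91, 2.59 and 2.63 against 3.74, 3.53 and 3.93 in Region 2. Its differences were smaller, 0.71 (SE 0.0661) and -1.02 (SE 0.134).

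stambpl1 did not share the opposite regional response, although the 5 genes were grouped under it. Its log2 signal in Region 1 was 4.55, 4.80 and 4.83 on the transgenic arrays and 6.09, 6.18 and 6.02 on the control arrays. In Region 2 it was 5.27, 5.17 and 5.31 on the transgenic arrays and 6.62, 6.49 and 6.65 on the control arrays. The transgenic arrays were below every control array in both regions. The log2 difference was -1.37 (SE 0.099), a fold of 2.59 downwards, in Region 1 and -1.34 (SE 0.0797), a fold of 2.52 downwards, in Region 2, and the differences of the 2 regions were 0.03 (SE 0.126) apart. Over the whole array, 9.56% of probe sets in Region 1 had all transgenic arrays below the controls, and 0.344% were lower at an adjusted p under 0.05.

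**Figure D1:**
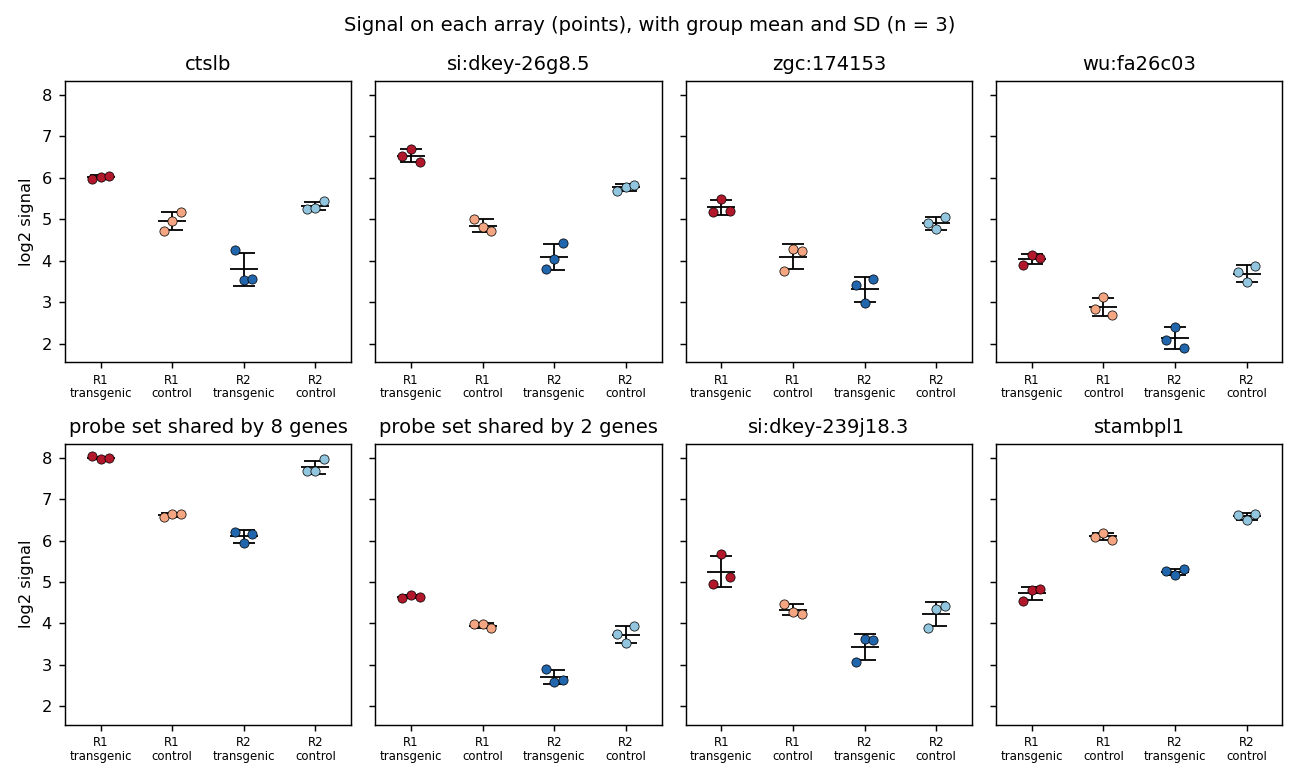
Log2 signal (vertical axis) of ctslb, the 3 other cathepsin-neighbourhood genes, both shared probe sets, the neighbour si:dkey-239j18.3 and stambpl1 on each array of the 4 groups; R1 and R2 are Region 1 and Region 2, points are arrays, and the black bars give the group mean and SD (n = 3). In the 7 panels other than that of stambpl1, transgenic pieces are above control pieces in Region 1 and below them in Region 2; stambpl1 is lower in transgenic pieces of both regions.

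The order of the 4 groups was the same for ctslb, si:dkey-26g8.5, zgc:174153 and wu:fa26c03. Every transgenic array of Region 1 was above every control array of Region 2, which was above every control array of Region 1, which was above every transgenic array of Region 2. The narrowest step was that of wu:fa26c03 between the lowest transgenic array of Region 1, at 3.89, and the highest control array of Region 2, at 3.87. This step crosses the regions, and the control difference between regions moves with the scaling described with the control pieces, so the order rests on the deposited values. Over the whole array 9 probe sets (0.012%) had this order, of which 4 were these genes, 1 was the probe set of 8 genes and 4 had no gene in the platform annotation. Those last 4 held only 2 distinct sets of values. The order was taken as a criterion after the values were seen, and its directions within each region are those that chose the genes. The count is therefore a description.

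The difference between the regional responses, as the response in Region 2 minus that in Region 1, was -2.59 (SE 0.25) for ctslb, -3.36 (SE 0.209) for si:dkey-26g8.5, -2.78 (SE 0.25) for zgc:174153 and -2.71 (SE 0.22) for wu:fa26c03 on the log2 scale. It was -3.05 (SE 0.133) for the probe set of 8 genes and -1.73 (SE 0.153) for that of 2 genes. Ordered from the most negative difference over all 75212 probe sets, si:dkey-26g8.5 ranked 1, the probe set of 8 genes 3 and zgc:174153 4. wu:fa26c03 ranked 10, ctslb 11 and the probe set of 2 genes 29. The selection of the genes favoured such ranks, and the shared probe sets were added after their values were seen. The ranks are therefore a description. For the difference between regions, 0.128% of all probe sets were lower and 0.0638% higher at an adjusted p under 0.05 in limma.

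How many other probe sets share the opposite response depended on the criterion. At an adjusted p under 0.05 in both regions, 6 probe sets were higher in Region 1 and lower in Region 2, which is 0.00798% of all. These were the 4 genes and both shared probe sets. The selection of the genes fixed their place among them, and the shared probe sets were added after their values were seen, so the count is a description. It was 0 to 11 under other ways of fitting, and 0 to 2 when any 1 array was left out. It came to 1 with the one-way test named in the study's methods, and that probe set was not one of these genes. Under quantile normalization 5 remained, without ctslb itself. The criteria that follow were chosen after the values were seen. With a fold above 2 and no overlap of arrays in both regions, 11 probe sets (0.0146%) remained, of which 4 were these genes, 1 was the probe set of 8 genes and 6 had no gene in the platform annotation. Those 6 held only 2 distinct sets of values. With a fold above 1.5 and no overlap, 22 probe sets (0.0293%) remained, and of the 16 others 1 had a gene, si:dkey-239j18.3, which lies directly after ctslb in the row. These 16 held 8 distinct sets of values. With no overlap alone, 557 probe sets (0.741%) had the pattern, 551 of them other than the 4 genes and both shared probe sets. The 551 held 499 distinct sets of values.

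**Figure D2:**
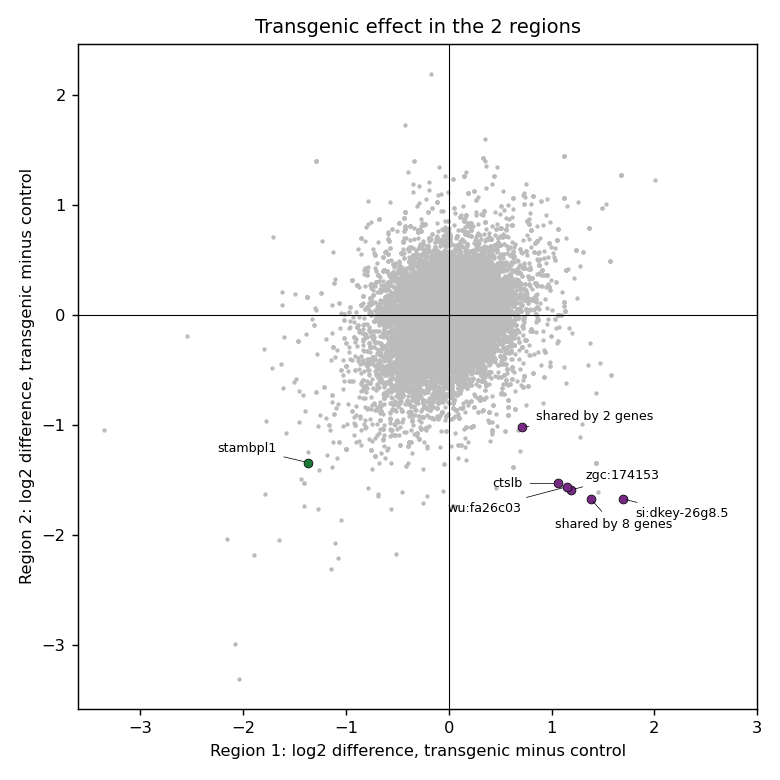
Log2 difference of transgenic minus control pieces in Region 2 (vertical axis) against that in Region 1 (horizontal axis) for all 75212 probe sets (grey points), with ctslb, the cathepsin-neighbourhood genes and both shared probe sets in purple and stambpl1 in green. The cathepsin-like probe sets lie at the lower right, with Region 1 differences from 0.71 to 1.69 and Region 2 differences from -1.67 to -1.02, and stambpl1 lies at the lower left.

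The levels in control pieces give the starting point in each region. On the deposited scale, control pieces of Region 2 were above those of Region 1 by 0.37 (SE 0.177) for ctslb, 0.92 (SE 0.148) for si:dkey-26g8.5, 0.81 (SE 0.177) for zgc:174153 and 0.80 (SE 0.155) for wu:fa26c03 on the log2 scale. The difference was 0.49 (SE 0.089) for stambpl1 and 1.15 (SE 0.0939) for the probe set of 8 genes. For the probe set of 2 genes it was -0.21 (SE 0.108), and the arrays overlapped. All of these compare regions whose array medians differ, and centring each array on its median raised the control differences by 0.18, to 0.55 for ctslb and 1.11 for si:dkey-26g8.5. In transgenic pieces the order was turned, with Region 2 below Region 1 by -2.23 for ctslb, -2.44 for si:dkey-26g8.5, -1.97 for zgc:174153 and -1.91 for wu:fa26c03, while stambpl1 was higher in Region 2 by 0.52. Control and transgenic differences share no arrays with each other, but both use the arrays that chose the genes.

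The 4 cathepsin-like genes were chosen for a shared pattern over the groups, so their likeness over the 12 arrays follows from the choice and is given as a description. After each region was centred on its own mean, Pearson's r with ctslb was 0.889 for si:dkey-26g8.5, 0.959 for zgc:174153 and 0.926 for wu:fa26c03, and 0.164 for stambpl1. These values describe 12 arrays that share 4 groups. Among 14205 genes with a mean signal above the median of all probe sets, the 8 with the highest r with ctslb were zgc:174153 at 0.959, pcmtd1 at 0.957, a1cf at 0.946, e2f2 at 0.944, serpina1l at 0.931, mospd2 and foxb1b at 0.930 and ess2 at 0.929. zgc:174153 was the only gene of the row among them. The shared probe sets carry several symbols and were not ranked. Their r with ctslb was 0.969 for that of 8 genes and 0.971 for that of 2 genes. wu:fa26c03 was below the signal limit and was not ranked either. The sizes differed widely, with differences of 0.23 and -0.40 for pcmtd1 in Region 1 and Region 2, against 1.06 and -1.53 for ctslb.

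Neighbouring genes were then followed along the row, to see where the opposite response ended. The gene directly before ctslb, si:dkey-239j18.2, also has ctsl as another name in the RefSeq table. Its probe set was dim, at a mean log2 signal of 1.87, with differences of 0.43 (SE 0.151) in Region 1 and -0.36 (SE 0.214) in Region 2, and the groups overlapped in both regions. The next gene outwards with a probe set of its own was htr7, a serotonin receptor gene, at -0.13 (SE 0.115) and 0.25 (SE 0.113).

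The gene directly after ctslb, si:dkey-239j18.3, moved like ctslb in direction. Its log2 signal in Region 1 was 4.95, 5.67 and 5.12 on the transgenic arrays and 4.48, 4.27 and 4.23 on the control arrays. In Region 2 it was 3.07, 3.63 and 3.60 on the transgenic arrays and 3.90, 4.36 and 4.43 on the control arrays. The groups did not overlap in either region, but the replicates were spread, and the differences of 0.92 (limma, adjusted p = 0.134) and -0.80 (adjusted p = 0.218) did not pass the test. The difference between the regions was -1.72 (adjusted p = 0.0617). Its control pieces were at about the same level in both regions, at 4.33 ± 0.133 (SD, n = 3) and 4.23 ± 0.288 (SD, n = 3).

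Beyond zgc:174153 the next gene, pank1b, a pantothenate kinase gene, had differences of 0.07 (SE 0.0645) and -0.02 (SE 0.0782) at a mean log2 signal of 8.15. Between pank1b and stambpl1 stood slc16a12b, the interferon-induced genes ifit12, ifit11, ifit10 and ifit9, ch25h and the smooth muscle actin gene acta2, most of them dim. The lowest difference among them in Region 1 was that of acta2, at -0.56 (limma, adjusted p = 0.295) and a mean log2 signal of 2.24. On the far side of stambpl1, ankrd22 had differences of -0.15 (SE 0.114) and -0.18 (SE 0.0691), and lipf of 0.05 (SE 0.117) and -0.09 (SE 0.124). stambpl1 stood between genes with smaller differences than its own in both regions.

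Of the 29 neighbouring genes with a probe set of their own, 10 on each side of the row and 9 within it, 0 passed in Region 1 and 0 in Region 2 by limma. The 9 within the row were added after their values were seen. At an unadjusted p under 0.05, 3 were higher and 3 lower in Region 1, and 0 were higher and 4 lower in Region 2, and 0 passed in either region by the one-way test of the methods. Over all probe sets, 6.28% were higher and 6.23% lower at this unadjusted threshold in Region 1, and 4.56% were higher and 6.2% lower in Region 2, which is the background for every unadjusted count of a list. The median difference over the 29 genes was 0.02 in Region 1 and -0.09 in Region 2, beside medians over all probe sets of -0.005 and -0.006. ppp1r3cb, which encodes a subunit that targets protein phosphatase to glycogen, came nearest to the threshold in both regions, at -0.51 (adjusted p = 0.0569) in Region 1 and -0.52 (adjusted p = 0.0673) in Region 2. It passed in 4 of 7 other settings in Region 1 and 3 of 7 in Region 2.

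**Figure D3:**
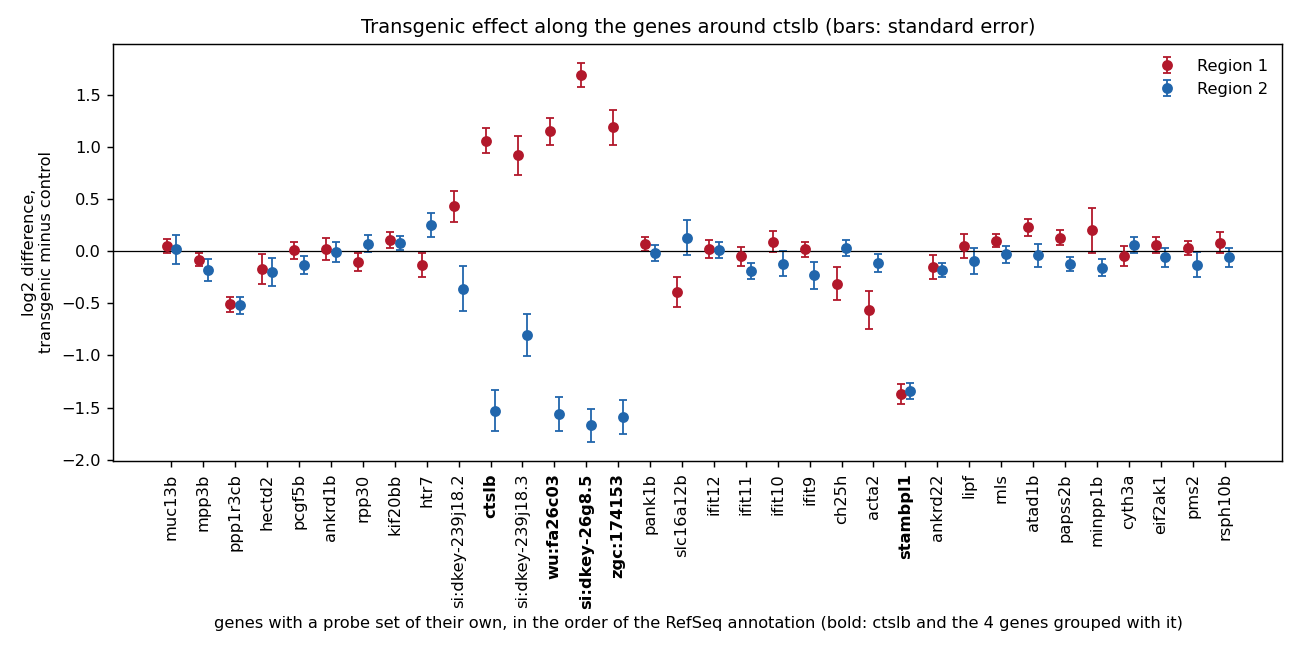
Log2 difference of transgenic minus control pieces (vertical axis) in Region 1 (red) and Region 2 (blue) for each gene with a probe set of its own, in the order of the RefSeq gene table (horizontal axis, not to scale), with the standard error as bars and the 5 genes in bold. From si:dkey-239j18.2 to zgc:174153 the Region 1 points are above 0 and the Region 2 points below it, most widely for si:dkey-26g8.5 at 1.69 and -1.67. The same signs occur at smaller size at pank1b, where both are near 0, and at most genes after stambpl1, such as minpp1b at 0.20 and -0.16. The arrays of si:dkey-239j18.2 overlapped in both regions. The points of stambpl1 are at -1.37 and -1.34.

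Cathepsins outside the row showed smaller differences than ctslb. Of 17 other cathepsin and legumain genes, 0 were higher and 1 was lower in each region by limma. Over all probe sets, 0.162% were higher and 0.344% lower in Region 1, and 0.0678% and 0.400% in Region 2. These shares are the background for every adjusted count of a list within a region, the neighbours included. At such shares a short list would mostly hold no call, so a count of 0 sets no list apart. The median difference of the 17 genes was -0.03 in Region 1 and -0.14 in Region 2. At an unadjusted p under 0.05, 1 was higher and 2 were lower in Region 1, and 0 were higher and 5 were lower in Region 2. For the difference between regions 0 were called by limma and 2 by the one-way test. The totals of the one-way test over all probe sets are given with the dependence on the processing. An unadjusted p under 0.05 for this difference was reached upwards by 0 and downwards by 4 of the 17 genes (beside 4.02% and 5.21% of all probe sets), and the median was -0.11. The differences within a region ran from -0.58 to 0.38 in Region 1 and from -0.50 to 0.15 in Region 2. The gene that passed was ctss2.1, a gene of the cathepsin S type. Its mean in Region 1 was 8.40 ± 0.0722 (SD, n = 3) for the transgenic group against 8.98 ± 0.0558 (SD, n = 3) for the control group, a difference of -0.58 (limma, adjusted p = 0.0384). In Region 2 they were 8.10 ± 0.0716 (SD, n = 3) and 8.60 ± 0.00263 (SD, n = 3), a difference of -0.50 (adjusted p = 0.0493). It fell in both regions, like stambpl1 and unlike ctslb, and it no longer passed in either region when any 1 array was left out. The cathepsin F gene ctsf, named after its values were seen, was at 0.38 (adjusted p = 0.0901) in Region 1 and -0.01 (adjusted p = 0.986) in Region 2 by limma, and the difference between regions was -0.38 (adjusted p = 0.139).

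The brightest cathepsins of the list showed small differences. The dipeptidyl peptidase gene ctsc had differences of -0.03 (SE 0.0592) in Region 1 and -0.23 (SE 0.064) in Region 2, ctsll of 0.01 (SE 0.0683) and -0.15 (SE 0.0713), the cathepsin B gene ctsba of -0.01 (SE 0.0619) and -0.14 (SE 0.0635), and ctsh of -0.12 (SE 0.0684) and -0.14 (SE 0.0743). ctsla, the other main cathepsin L gene, chosen after its values were seen, was at -0.10 (SE 0.0744) and -0.32 (SE 0.0638), with an adjusted p of 0.132 in Region 2 by limma. The mean log2 signal of the 17 genes was 6.93 to 6.95 on the transgenic and 6.98 to 7.01 on the control arrays of Region 1, and 6.81 to 6.88 and 6.95 to 7.02 on those of Region 2.

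Cystatins inhibit cysteine cathepsins. Of 5 listed genes 4 were measured, and 0 were called in Region 1 or Region 2 by limma, beside the shares given with the cathepsins. At an unadjusted p under 0.05, 1 was lower in Region 1 and 2 were lower in Region 2, and the one-way test of the methods called 1 in Region 1 and 0 in Region 2. cst3, cystatin C, was at -0.21 (adjusted p = 0.231) and -0.39 (adjusted p = 0.0841). Of 25 lysosomal genes 18 were measured and 0 were called in either region by limma, with medians of 0.04 and -0.05. At an unadjusted p under 0.05, 2 were higher and 1 lower in Region 1, and 1 was higher and 4 were lower in Region 2, and the one-way test called 0 in both. The brightest, psap, which encodes the saposin precursor, was at -0.04 (SE 0.0626) and -0.29 (SE 0.065), and lamp2, which encodes a lysosomal membrane protein, was at 0.12 (SE 0.0608) and -0.13 (SE 0.0641).

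Hatching gland genes were examined because that is the tissue in which ctslb is best known. Of 12 listed genes, 0 passed in Region 1 and 0 in Region 2 by limma, with medians of -0.01 and -0.11. At an unadjusted p under 0.05, 2 were higher and 1 lower in Region 1, and 0 were higher and 4 lower in Region 2. The one-way test of the methods called 0 in Region 1 and 1 in Region 2, which was prdm1a. The transcription factor klf17, which is required in the polster, had differences of -0.05 (SE 0.0803) and -0.19 (SE 0.065). The transcription factor prdm1a had differences of -0.30 (adjusted p = 0.125) and -0.33 (adjusted p = 0.113) by limma, downwards in both regions, and is also known from somites. The gland's defining hatching enzyme genes he1.1, he1.2 and he1.3, named after their values were seen, had mean log2 signals over the 12 arrays of only 1.86, 1.52 and 1.86. he1.1 had differences of 0.40 (adjusted p = 0.390) and -0.44 (adjusted p = 0.304), with the directions of ctslb, but its arrays overlapped in Region 1. he1.2 was at 0.15 (SE 0.072), with its arrays apart, and -0.25 (SE 0.113), with its arrays overlapping, and the difference between regions was -0.40 (adjusted p = 0.379). he1.3 was at -0.03 and 0.13. Also named after their values were seen, agr2 went the other way, at -0.15 (SE 0.0845) and 0.19 (SE 0.0946). cd63 was higher in both regions, at 0.17 (SE 0.0676) and 0.13 (SE 0.0683), and foxa3 was at 0.09 (SE 0.0599) and -0.07 (SE 0.0732). Likewise named, gsc was at 0.06 (SE 0.0606) and -0.09 (SE 0.0641), with its arrays apart in both regions and a mean log2 signal of 2.76. For the difference between regions, 1 listed gene was higher and 2 were lower at an unadjusted p under 0.05 in limma. Over all probe sets these shares were 4.02% and 5.21%. The mean signal over the 12 genes was 4.87 to 4.90 on the transgenic and 4.86 to 4.88 on the control arrays of Region 1, and 4.89 to 4.94 and 5.01 to 5.02 on those of Region 2. The part of hatching gland cells in the ctslb differences was not tested.

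**Figure D4:**
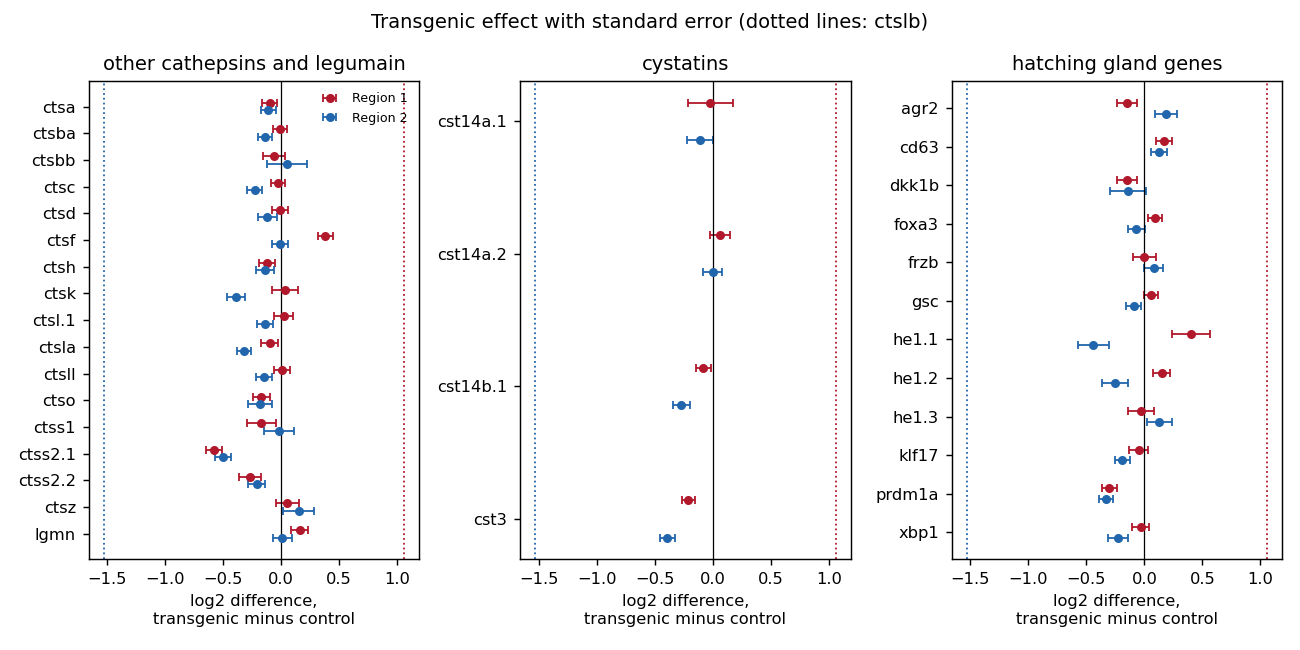
Log2 difference of transgenic minus control pieces (horizontal axis) in Region 1 (red) and Region 2 (blue) for 17 other cathepsin and legumain genes, 4 cystatins and 12 hatching gland genes (vertical axis), with the standard error as bars; the dotted lines mark ctslb at 1.06 and -1.53. All points lie inside the ctslb lines, from -0.58 to 0.40.

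Marker lists of other tissues in the pieces moved beside ctslb as follows. Of 13 measured yolk syncytial layer genes, mxtx1 and slc26a1 fell in both regions, mxtx1 by 0.70 and 1.09 and slc26a1 by 0.71 and 0.86 on the log2 scale, and the mean log2 signal of the list was 7.68 to 7.70 on transgenic against 7.79 to 7.82 on control arrays in Region 1 and 7.55 to 7.60 against 7.84 to 7.89 in Region 2. The nuclear receptor gene hnf4a in this list had the directions of ctslb, at 0.30 (SE 0.0708) and -0.34 (SE 0.0765), neither past the threshold alone, and the difference between regions was -0.64 (limma, adjusted p = 0.0344), a call that was lost in 11 of 12 cases when 1 array was left out. Of 15 enveloping layer genes, grhl3 fell in Region 1 by 0.71 (adjusted p = 0.0346), and the mean signal of the list, transgenic against control, was 8.75 to 8.76 against 8.89 to 8.93 in Region 1 and 8.92 to 8.96 against 9.06 to 9.10 in Region 2. The unadjusted counts of the yolk syncytial layer list were 2 higher and 6 lower in Region 1 and 0 higher and 7 lower in Region 2, and those of the enveloping layer list were 0 higher and 7 lower in each region.

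Of 11 measured tailbud genes, tbx16 rose by 0.95 (limma, adjusted p = 0.0162) and msgn1 by 0.53 (adjusted p = 0.0450) in Region 1, and eve1 fell by 0.79 (adjusted p = 0.0163) in Region 2. All 3 are genes of the posterior mesoderm and tailbud, and in control pieces they were lower in Region 1 than in Region 2 by 4.54, 4.68 and 5.40. The list did not move one way. Before adjustment, 6 of its genes were higher and 3 lower in Region 1 at a p under 0.05, and 5 were higher and 2 lower in Region 2. Those lower in Region 1, named after their values were seen, were the notochord factor noto at -0.72 (adjusted p = 0.0503), the ligand gene wnt3a at -0.56 (adjusted p = 0.0608) and the growth factor gene fgf8a at -0.28 (adjusted p = 0.303).

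Of 12 somite genes, the dermomyotome and neural crest factor pax3a fell in both regions and the myogenic factor myod1 fell in Region 2 by limma. Before adjustment, 4 were higher and 2 lower in Region 1 at a p under 0.05, and 2 were higher and 4 lower in Region 2. Higher values that did not pass, named after they were seen, were those of tbx18 at 0.59 (adjusted p = 0.0631) and aldh1a2, which encodes an enzyme of retinoic acid synthesis, at 0.37 (adjusted p = 0.0782) in Region 1, and of ripply1 at 0.58 (adjusted p = 0.0767) in Region 2. tcf15, named likewise, had the directions of ctslb, at 0.16 (SE 0.0657) and -0.23 (SE 0.0768). Its difference between regions was -0.38 (limma, adjusted p = 0.18). For that difference, 1 somite gene was higher and 4 were lower at an unadjusted p under 0.05 in limma. The mean signal of the list was 7.48 to 7.53 on transgenic against 7.41 to 7.45 on control arrays in Region 1, and 6.30 to 6.33 against 6.32 to 6.36 in Region 2. Of 8 genes of the left-right organiser 0 passed in either region by limma, at an unadjusted count of 1 higher and 1 lower in Region 1 and 2 higher and 2 lower in Region 2, and 0 by the one-way test.

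Every call within a region in these marker lists, those of mxtx1, slc26a1, grhl3, tbx16, msgn1, eve1, pax3a and myod1, was lost when any 1 array of that region was left out. The one-way test of the methods kept the calls of mxtx1, slc26a1 and pax3a in Region 1 and of eve1 in Region 2, and lost the others. It called 2 yolk syncytial layer genes in each region, and 2 somite genes in Region 1 and 0 in Region 2. It called 0 tailbud genes in Region 1 and 1 in Region 2, and 0 enveloping layer genes in either. For the difference between regions it called 3 yolk syncytial layer genes, 3 tailbud genes, 0 somite genes and 0 enveloping layer genes. Some of these were genes that limma did not call. The part of these tissues in the ctslb differences was not tested.

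Genes of the machinery in which stambpl1 is placed did not fall with it as a list. Of 20 listed genes of the STAM and ESCRT sorting complexes 18 were measured, and 0 were called in Region 1 or Region 2 by limma. At an unadjusted p under 0.05, 2 were higher and 0 lower in Region 1, and 0 were higher and 1 was lower in Region 2, and the one-way test called 0. The gene lower in Region 2 was tsg101a, at -0.33 (limma, adjusted p = 0.251), with its transgenic arrays below the controls. In Region 1 tsg101a was at 0.08 (SE 0.0786). The median difference was 0.09 in Region 1 and 0.02 in Region 2. The closest relatives of stambpl1 in the list, chosen after their values were seen, were stambpa at 0.13 (SE 0.118) and -0.13 (SE 0.191) and stambpb at 0.00 (SE 0.0877) and 0.03 (SE 0.10), and stam2, an adaptor of the sorting complex, was at 0.18 (SE 0.0666) and 0.02 (SE 0.0655).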

How the data were processed

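The log2 values were deposited by the authors for 75212 probe sets and 12 arrays. The submitters' processing notes name Affymetrix Expression Console, but the sources used here do not say how signals were summarized and normalized, and the Transcriptome Analysis Console is also named. Array medians differed between the regions, and whether the regions were normalized apart is not stated. Depth has no counterpart on arrays, and 3 arrays a group limit the precision: the smallest two-sided exact p for 3 against 3 is 0.1.

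Of the 75212 probe sets, 9270 repeated the values of an earlier one, and shares and ranks over all probe sets count these repeats. Probe sets were named from the platform annotation. 29528 had 1 symbol, 1845 several and 43839 none, and symbols were updated through gene IDs for 27940, through symbols or synonyms for 486, and kept for 1102. For each list gene, the probe set with the highest mean was used.

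Within a region, the transgenic group was set against the control group with limma 3.58.1 (R 4.3.3, lmFit and eBayes), as the study compared them, with Benjamini-Hochberg adjustment over all probe sets. The regional difference and the control regions were fitted on 12 arrays. The one-way ANOVA of the methods was an alternative, as were other moderation, scaling, filters and left-out arrays. The scripts were tested on simulated data. Genes, lists and tests were chosen with earlier results of these data known. Named genes were the 5 genes, list genes past an adjusted p of 0.05 or up to 4 of the largest signal, 10 neighbours on each side, and the 8 genes most like ctslb. Replicates are called biological in the labels, and replicate numbers did not pair arrays within a region (correlations of deviations from -0.055 to 0.008). Across the regions of a genotype they were 0.017 to 0.079, and the sources used here do not state whether same-numbered pools of both regions came from the same embryos.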

Additional observations from a re-analysis of the deposited data

Results flagged for a closer look

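The transgenic effect pointed one way on all arrays of Region 1 and the opposite way on all arrays of Region 2 for 6 cathepsin-like probe sets. The effect in Region 2 minus that in Region 1 was -2.59 for ctslb, -3.36 for si:dkey-26g8.5, -2.78 for zgc:174153, -2.71 for wu:fa26c03, -3.05 for the probe set shared by 8 genes and -1.73 for that shared by 2 genes, on the log2 scale. This difference was not tested, because it chose these genes. For 2 genes of the marker lists the difference between regions was tested and passed in limma. It was -0.64 (adjusted p = 0.0344) for hnf4a and -0.69 (adjusted p = 0.0273) for tbx16. Leaving out 1 array ended the call of hnf4a in 11 of 12 cases and that of tbx16 in 10 of 12.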

How the results depend on the processing

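Alternatives for the count of the opposite response were added after seeing the data. The transgenic effect on ctslb held its direction in every setting run, which is no test, since that direction chose the gene. With every array kept, only quantile normalization and median centring could change its size, as the other settings alter the spread, filter or covariates. With 1 array left out the direction could not turn, because the groups did not overlap. The effect was 1.06 to 1.09 in Region 1 and -1.53 to -1.50 in Region 2, and 0.94 to 1.17 and -1.77 to -1.41 with 1 array left out. ctslb was no longer among the opposite-response calls under quantile normalization, the ANOVA or the replicate block. The effects of the other 4 genes moved by less than 1 SD, and 0 results reversed. The regional difference for ctslb was -2.60 to -2.59, and -2.83 to -2.47 with 1 array left out. The control difference of ctslb moved to 0.55 with median centring.

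Counts of calls moved far more, and in each case the cause was not tested. In Region 1, 381 probe sets passed, against 162 with the ANOVA, 1009 with trend and robust spread, 1181 with all 12 arrays, 838 among brighter probe sets, 0 with the replicate block and 30 to 46 with 1 array left out. In Region 2, 352 passed, against 144, 868, 1300, 732, 0 with the replicate block and 16 to 78. For the regional difference, 144 passed, against 310, 423 and 362 with the ANOVA, trend and brighter probe sets, 54 with the replicate block, 23 with a block across both regions of a genotype (added after seeing the data, and ending the calls of hnf4a and tbx16 at -0.64 and -0.69) and 41 to 71. Out of 75212 probe sets, the ANOVA thus called 162 in Region 1, 144 in Region 2 and 310 for the regional difference. These totals are the background for every one-way count of a list. The opposite response, a description since these values chose the genes, was called in 6 probe sets, 1 with the ANOVA, 11 with all 12 arrays, 0 with the replicate block and 0 to 2 with 1 array left out.

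Other cathepsins called in Region 1 went from 1 to 2 with trend, all 12 arrays or brighter probe sets, ctsf being the added gene, and to 0 with the ANOVA, the replicate block or any 1 array left out (0 to 0). In Region 2 they went from 1 to 3 with trend, 2 with all 12 arrays and 0 with the ANOVA, quantile normalization, median centring, the replicate block or any 1 array left out (0 to 0). Under trend, all 12 arrays and brighter probe sets 1 hatching gland gene (prdm1a) and 1 neighbour (ppp1r3cb) passed in each region, likewise prdm1a by the ANOVA in Region 2 and ppp1r3cb under quantile normalization in Region 1.

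wu:fa26c03 was below the brightness limit and has no value there. Each gene has 1 probe set, so the alternative of other probe sets could not be run. With 3 arrays a group, and with signal over background not assessed, small differences of dim genes were not detectable.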
